A study of Mus musculus with 4 samples.

Results

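Aminoacyl-tRNA synthetases join each amino acid to its tRNA, and separate sets of them serve protein synthesis in the cytosol and in the mitochondria. Their mRNAs were followed in mouse retina through 36 genes, taken by gene symbol from a table of 23336 genes. Of these, 20 encode cytosolic enzymes, and 16, whose symbols end in 2, encode mitochondrial ones. All 36 were among the 15003 genes tested, whose mean over the libraries reached 10 normalized counts, and the lowest of them, Ears2, had a mean of 325. The members were listed by function, but the family was chosen by a measured value, the call of Lars2, the mitochondrial leucyl-tRNA synthetase, as higher in mice with the Opn4-DTA allele in the authors' deposited table. The Lars2 difference is therefore given as a description and supports nothing further.

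RNA-seq of whole retina was made at postnatal day 8 from wild-type littermates (WT, 2 libraries) and from Opn4-DTA/DTA mice (2 libraries), all on the C57/Bl6 background. In Opn4-DTA/DTA mice both copies of Opn4, the gene for the photopigment melanopsin, carry diphtheria toxin A, which kills the cells that make it. The loss of melanopsin and the loss of the melanopsin-expressing ganglion cells therefore cannot be told apart, and in bulk RNA fewer cells of a type cannot be told apart from less RNA per cell. One label calls the tissue dissociated retinal cells while the design text speaks of whole extracts, and no label says that each library was made from its own animal. Where it was not, p-values measure only a spread that may be technical.

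The authors deposited group means, and the value of every library was recovered from them. In each group, library a is the one with the larger size factor, since the recovered values carry no sample name. The unit is the normalized count, a gene's read count divided by the size factor of its library. Total counts ran from 22202382 to 60833968. Opn4 had 369 and 161 counts in the WT libraries and 1 and 0 in the Opn4-DTA/DTA libraries (limma adjusted p = 0.00255). All 12 retinal markers examined were present, among them Lhx1 of horizontal cells, at 275 to 292 normalized counts, and the photoreceptor factor Crx, at 60867 to 64951. For 5 of the 12 (41.7%), Crx and Otx2 among them, both Opn4-DTA/DTA libraries were below both WT libraries, and for 0 of the 12 above. Over all genes tested, this was so for 12.3% below and 11.2% above. 1 library differed from the other 3 in its sex-linked genes: Opn4-DTA/DTA library a had 7652 counts of the Y-linked Ddx3y, against 0 in each of the others, and 86 of the X-inactivation RNA Xist, against 51103 or more. Lars2 is therefore also given without it.

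A synthetase first activates its amino acid with ATP and then transfers it to the tRNA, and the accuracy of the genetic code rests on this step. The enzymes belong to unrelated classes with different folds, class I and class II, and in mammals several cytosolic enzymes are held in a multisynthetase complex by scaffold proteins. Nearly all mitochondrial enzymes are encoded by their own nuclear genes, made in the cytosol and imported. Gars and Kars are exceptions, since each gene gives both the cytosolic and the mitochondrial form. Many cytosolic synthetase genes are known targets of ATF4, a factor of the integrated stress response, which acts through C/EBP-ATF response elements.

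That element stands in the promoters of part of the cytosolic set, and its surroundings are shown because they mark off these genes within the family. Promoters from 250 bases before to 50 bases after the annotated start, from RefSeq on GRCm38.p6, were found for 26 of the 36 genes, 12 cytosolic and 14 mitochondrial. Both strands were searched for TGATGNAA. It was held by 5 of the 12 cytosolic promoters (Aars, Gars, Iars, Tars, Yars), by 0 of the 14 mitochondrial ones and by 3.97% of all 32851 promoters. 1 match per gene is shown. The stretches are written along the gene's own strand, with the match, or its reverse complement, in capitals. They lie at chr8:111033839-111033870 (Aars, + strand), chr6:55037959-55037990 (Gars, +), chr13:49682125-49682156 (Iars, +), chr15:11399654-11399685 (Tars, −) and chr4:129189894-129189925 (Yars, +).
Aars: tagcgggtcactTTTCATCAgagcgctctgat
Gars: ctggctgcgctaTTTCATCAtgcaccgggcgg
Iars: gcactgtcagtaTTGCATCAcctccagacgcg
Tars: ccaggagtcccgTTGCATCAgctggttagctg
Yars: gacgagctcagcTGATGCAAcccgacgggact
None of these matches overlapped an E-box, a motif given further below. A match is a run of letters and no measured binding.

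In the mitochondrial set another motif was found in 2 promoters. The core of the NRF1 site, CGCATGCG, which reads the same on both strands, was held by those of Vars2 and Wars2, that is by 2 of 14 mitochondrial and 0 of 12 cytosolic promoters, against 1.87% of all. NRF1 is an activator of many nuclear genes for mitochondrial proteins. The matches are shown for contrast with the cytosolic element. They lie at chr17:35667620-35667651 and chr17:35667594-35667625 (Vars2, − strand) and chr3:99141015-99141046 (Wars2, + strand).
Vars2, upstream match: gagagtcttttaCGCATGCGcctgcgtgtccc
Vars2, downstream match: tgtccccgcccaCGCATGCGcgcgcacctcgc
Wars2: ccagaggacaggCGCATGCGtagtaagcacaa
The E-box CACGTG, also the same on both strands, was found in 4 of 12 cytosolic promoters (Aars, Farsb, Iars, Tars) and 1 of 14 mitochondrial ones (Ears2), against 7.15% of all.

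The promoter of Lars2, the gene that stood apart in level and in difference, held none of these 3 motifs. No match says only that these letters are not in this window. Its 250 bases before the start, chr9:123366677-123366926 on the + strand, are shown with the 2 matches to the GC box GGGCGG in capitals, a motif added after the sequence had been seen.
Lars2: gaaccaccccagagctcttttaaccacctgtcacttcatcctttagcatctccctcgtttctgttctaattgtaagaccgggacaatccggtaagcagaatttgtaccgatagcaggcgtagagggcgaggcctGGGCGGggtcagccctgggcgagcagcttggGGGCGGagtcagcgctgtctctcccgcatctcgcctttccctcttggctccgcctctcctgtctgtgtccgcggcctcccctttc
The matches began 116 and 85 bases before the start. A GC box on either strand was held by 11 of 14 mitochondrial promoters, 8 of 12 cytosolic promoters and 35.7% of all promoters.

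In WT retina the cytosolic synthetase mRNAs were the more abundant set. Levels are compared here as normalized counts per kilobase of coding sequence. Untranslated exon length was not included, so that levels of genes with untranslated parts of different length compare only roughly. The cytosolic levels ran from 537 for Vars to 3802 for Nars, with a median of 1640. The mitochondrial levels ran from 207 for Ears2 to 7527 for Lars2, with a median of 355. Without Lars2 the highest mitochondrial level was 1100, that of Hars2, whose counts are uncertain for a reason given below. The next was that of Rars2, at 831. In Opn4-DTA/DTA the cytosolic median was 1576 and the mitochondrial median 361. When all 36 genes were put in the order of their WT means, the gap between neighbours was larger than the sum of their SDs in 13 of 35 steps, so that most neighbouring places in the order are not resolved by 2 libraries.

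**Figure D1:**
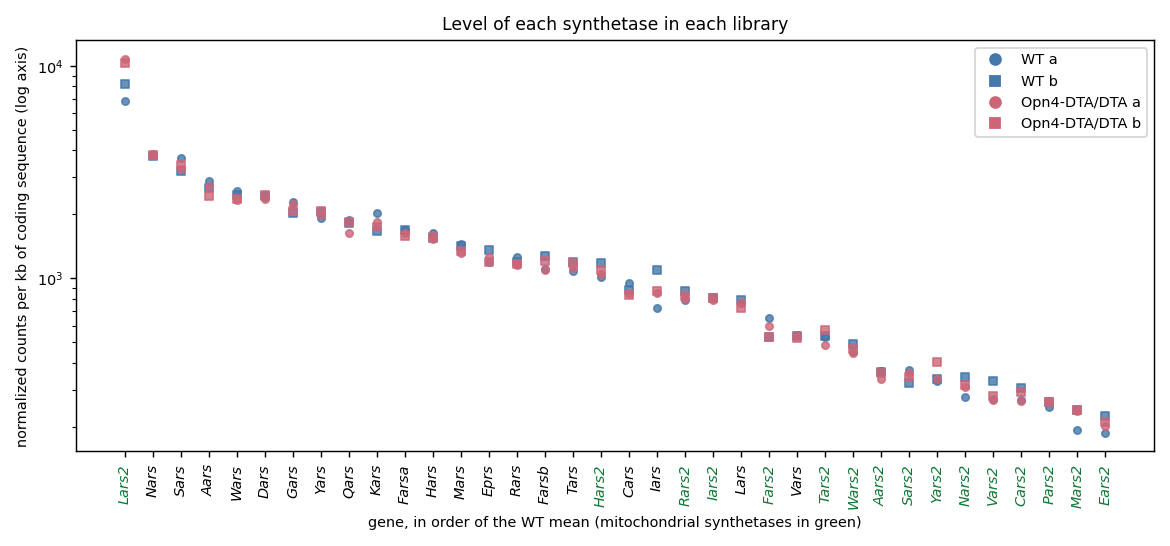
Normalized counts per kilobase of coding sequence (log axis) of the 36 synthetases in each of the 4 libraries, in the order of the WT mean, with mitochondrial enzymes named in green. Lars2 is the highest of all in each library. The other mitochondrial enzymes, none with a WT mean above the 1100 of Hars2 (counts uncertain), lie mostly to the right of the cytosolic ones.

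Among the cytosolic enzymes the highest levels per coding kilobase in WT were those of Nars, Sars and Aars, which charge asparagine, serine and alanine. Nars had 6468 and 6285 normalized counts in WT libraries a and b and 6400 and 6373 in Opn4-DTA/DTA libraries a and b. Sars had 5901 and 5151 in WT and 5279 and 5488 in Opn4-DTA/DTA. Aars had 8305 and 7745 in WT and 7896 and 7066 in Opn4-DTA/DTA. The groups overlapped for all 3 of these genes. Their log2 fold changes, Opn4-DTA/DTA over WT, were 0.00 ± 0.09 (SE) for Nars, −0.03 ± 0.10 for Sars and −0.10 ± 0.10 for Aars. The exons of Aars share 1326 bases with those of Exosc6 on the same strand, so that its counts are uncertain.

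Of the mitochondrial enzymes, the highest levels per coding kilobase after Lars2 were those of Hars2 and Rars2, which charge histidine and arginine. Hars2 had 1539 and 1795 normalized counts in WT and 1583 and 1661 in Opn4-DTA/DTA, and its log2 fold change was −0.04 ± 0.11 (SE). Rars2 had 1365 and 1517 in WT and 1389 and 1429 in Opn4-DTA/DTA, with a log2 fold change of −0.03 ± 0.11. For both genes the Opn4-DTA/DTA libraries lay between the WT libraries. Hars2 and Hars are neighbours on opposite strands whose exons share 195 bases. In the deposited table Hars2, Vars2 and Farsa each carry the place of another gene that has the symbol as a synonym, so that the counts of these 3 are uncertain.

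For 13 amino acids the table holds both a cytosolic gene and a mitochondrial gene that could be set side by side within each library. The mitochondrial level per coding kilobase was the lower one in 12 of the 13 pairs in WT, with a median ratio of 0.313. The lowest ratio was that of Nars2 to Nars, 0.0820. Isoleucine came nearest to equal levels, with ratios of Iars2 to Iars of 1.13 and 0.740 in WT and 0.923 and 0.921 in Opn4-DTA/DTA. These ratios are uncertain, since Iars has a near-identical pseudogene and Iars2 shares 2034 exon bases with Rab3gap2 on the opposite strand. Leucine was the exception. Lars2 exceeded Lars by a ratio of 8.97 and 10.4 in WT libraries a and b and of 13.9 and 14.3 in Opn4-DTA/DTA libraries a and b.

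**Figure D2:**
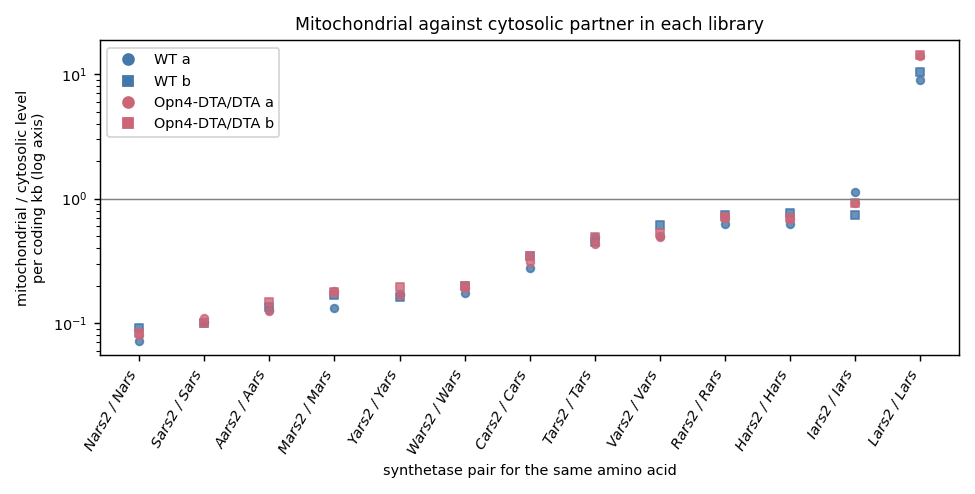
Ratio of the mitochondrial to the cytosolic level per kilobase of coding sequence (log axis) for 13 amino acids in each library, with a line at equal levels. In 12 pairs the WT mean lies below the line, down to 0.0820 for Nars2 and Nars, while Lars2 over Lars runs from 8.97 to 14.3.

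Lars2 was also the member with the largest difference between genotypes. It had 18490 and 22246 normalized counts in WT libraries a and b, and 29091 and 27921 in Opn4-DTA/DTA libraries a and b, from 15934, 14536, 53286 and 27288 recovered counts in that order. Both Opn4-DTA/DTA libraries were above both WT libraries. The means were 20368 ± 2656 (SD, n = 2) in WT and 28506 ± 827 (SD, n = 2) in Opn4-DTA/DTA, a ratio of 1.40. The log2 fold change was 0.49 ± 0.12 (SE). Lars2 lies at chr9:123366927-123462666 on the + strand of GRCm38, in the GENCODE annotation.

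Lars2 passed the threshold in the authors' deposited table, with a shrunken log2 fold change of 0.316 and an adjusted p of 0.00585. The deposited calls were 17 of 15003 genes (0.113%), of which 9 (0.0600%) higher in Opn4-DTA/DTA, and Lars2 was the only one of the 36 synthetases among them. In the limma fit over all genes its p was 0.00336 before adjustment, where 1.66% of genes had a p under 0.05, and its adjusted p was 0.9997. That fit called 3 genes (0.0200%) and 0 of the 36 synthetases. The limma adjusted p of Lars2 depended on the WT libraries, when a lone WT library was taken to vary like the Opn4-DTA/DTA pair. With WT library a left out, the log2 fold change was 0.36 and the adjusted p 0.0412, and 2.04% of all genes were called. With WT library b left out they were 0.62 and 0.000763, and 1.58% were called. With Opn4-DTA/DTA library a left out, the one with Ddx3y counts, the log2 fold change was 0.46, no synthetase was among the 0.0667% of genes called, and the remaining library, at 27921 normalized counts, lay above both WT libraries. With Opn4-DTA/DTA library b left out, the log2 fold change was 0.52, again with no synthetase among the 0.127% called.

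By the size of its log2 fold change Lars2 was the 533rd of the 15003 genes, and 96.4% of them changed less. Its WT level per coding kilobase stood at rank 618 of the 13038 genes with a known coding length. Within the summed mitochondrial synthetase counts it made up 59.2% and 62.3% in the WT libraries and 69.7% and 68.0% in the Opn4-DTA/DTA libraries. The sum of the other 15 mitochondrial enzymes was 12748 and 13435 normalized counts in WT and 12624 and 13138 in Opn4-DTA/DTA, and the groups overlapped. The cytosolic sum was 75569 and 75070 in WT and 72898 and 72429 in Opn4-DTA/DTA, so that both Opn4-DTA/DTA sums were below both WT sums. As a share of all counts of the library the groups overlapped, at 0.227% and 0.221% in WT and 0.219% and 0.221% in Opn4-DTA/DTA.

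Genes around Lars2 lay on both sides of their WT levels. Within 500 kb on either side 15 other genes were tested, 7 with a log2 fold change above 0 and 8 below, with a median of −0.02. The nearest on the side of its 3′ end was Limd1, at 0.08 ± 0.13 (SE). No transcript of another gene in the GENCODE annotation shared at least 100 bases at 95% identity or more with Lars2, and no exon of another gene overlapped it. The search used only the Lars2 transcript with the longest coding sequence and did not look for shorter matches. It cannot show that the Lars2 counts are free of reads from other RNAs. Ribosomal RNA carried over into the libraries, read from the 45S precursor Rn45s, was 86545 and 310826 normalized counts in WT and 158929 and 97677 in Opn4-DTA/DTA. Within each group the library with more Rn45s also had more Lars2, while over all libraries the orders differed. The part of ribosomal RNA in the Lars2 values was not tested.

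**Figure D3:**
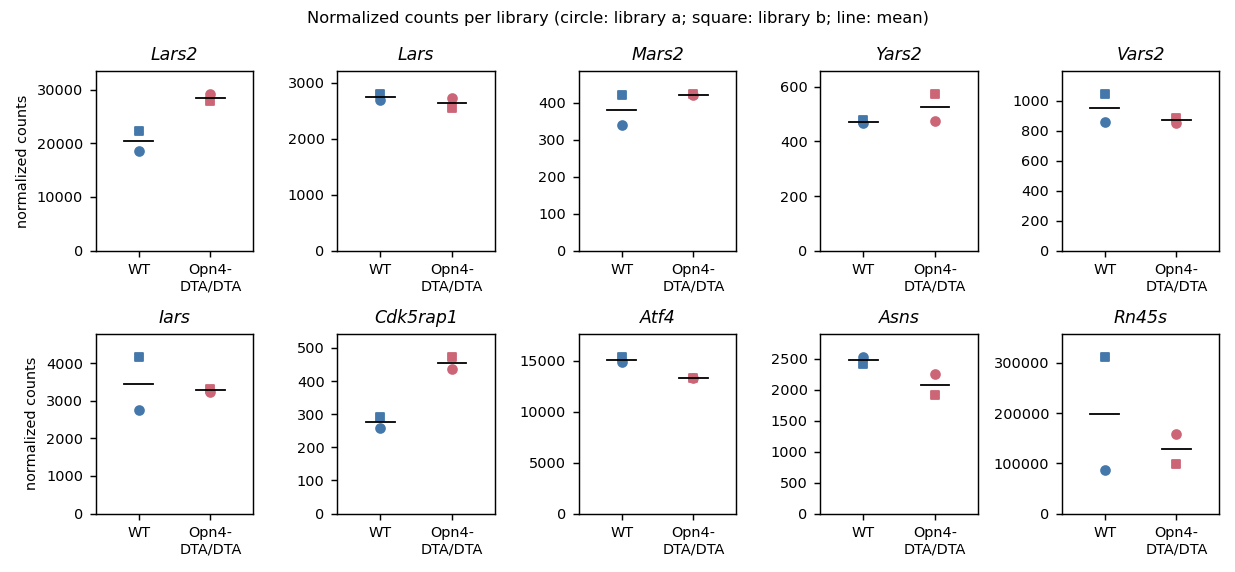
Normalized counts in each library for 10 genes, with circles for library a, squares for library b and a line at the group mean. Lars2 and Cdk5rap1 lie higher in both Opn4-DTA/DTA libraries, Atf4 and Asns lie lower, and the Iars range in WT, 2751 to 4152, spans both Opn4-DTA/DTA values.

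The partner enzyme Lars, the cytosolic leucyl-tRNA synthetase, which also acts as a leucine sensor for mTORC1, differed little between the group means. It had 2693 and 2793 normalized counts in WT and 2724 and 2551 in Opn4-DTA/DTA. The groups overlapped, and the log2 fold change was −0.06 ± 0.09 (SE; limma p before adjustment 0.560).

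The cytosolic enzymes had log2 fold changes close together, most of them below 0. Of the 20, 16 had a log2 fold change below 0, against 7504 of all 15003 genes tested, and the median was −0.04 against −0.00 for all genes. The range was −0.12 for Cars to 0.02 for Yars. None of the 20 passed the limma threshold, 0 had a p under 0.05 before adjustment, and the lowest such p was 0.229, that of Mars. In 5 of the 20 (25%) the groups were apart, all with Opn4-DTA/DTA lower (Cars, Farsa with uncertain counts, Mars, Rars, Wars). Over all genes 23.5% were apart, 12.3% with Opn4-DTA/DTA lower and 11.2% higher. The cytosolic share in either direction was near that of all genes, while the share with Opn4-DTA/DTA lower was above it. This difference was not tested. The median rested in part on the scaling. With libraries scaled by their totals, which moved the median of all genes by 0.03, the cytosolic median was −0.02 and 14 of the 20 were below 0.

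The 4 cytosolic genes with the largest differences were Cars, Mars, Wars and Qars, which charge cysteine, methionine, tryptophan and glutamine. Cars had 2379 and 2201 normalized counts in WT and 2132 and 2089 in Opn4-DTA/DTA. Mars had 3972 and 3893 in WT and 3580 and 3682 in Opn4-DTA/DTA. Wars had 3731 and 3570 in WT and 3381 and 3399 in Opn4-DTA/DTA. In each of these 3 genes both Opn4-DTA/DTA libraries were below both WT libraries. Qars had 4388 and 4251 in WT and 3787 and 4259 in Opn4-DTA/DTA, which overlapped. The log2 fold changes were −0.12 ± 0.10 (SE) for Cars, −0.12 ± 0.09 for Mars, −0.11 ± 0.09 for Wars and −0.10 ± 0.10 for Qars. Without Opn4-DTA/DTA library a the log2 fold change of Qars was −0.02. Mars shares 68 exon bases with the stress gene Ddit3 on the opposite strand.

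The remaining separated members differed by less. Rars, for arginine, had 2503 and 2363 normalized counts in WT and 2285 and 2301 in Opn4-DTA/DTA. Farsa, the alpha subunit of the cytosolic phenylalanyl-tRNA synthetase, had 2578 and 2570 in WT and 2481 and 2418 in Opn4-DTA/DTA, while for the beta subunit Farsb, at 1951 and 2254 against 1940 and 2128, the groups overlapped. The deposited table prints the place of Farsb for Farsa, so that the Farsa counts, and this contrast, are uncertain. Both subunits are needed for the active enzyme.

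Iars, the cytosolic isoleucyl-tRNA synthetase, had the widest spread between the WT libraries of all 36 members. It had 2751 and 4152 normalized counts in WT and 3243 and 3314 in Opn4-DTA/DTA. WT library b was 1.51 times library a, while for the 36 genes together this ratio had a median of 1.01. The log2 fold change was −0.04 ± 0.18 (SE), and its value depended on which WT library was kept. It was −0.34 without WT library a (limma adjusted p = 0.0375) and 0.25 without WT library b (adjusted p = 0.117). Iars also has a processed pseudogene, Gm4849, that shares 1656 bases with it at 96.0% identity, so that its counts are uncertain.

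The multisynthetase complex holds 8 of the cytosolic enzymes. All 8 (Dars, Eprs, Iars, Kars, Lars, Mars, Qars, Rars) had log2 fold changes below 0, from −0.01 for Dars to −0.12 for Mars, with a median of −0.05. The groups were apart in 2 of the 8 (25%), both with Opn4-DTA/DTA lower, against 23.5% of all genes apart and 12.3% apart and lower. Dars lay above 0, at 0.02, with libraries scaled by their totals, and 5 of the 8 were below 0 without WT library b. Of the 12 cytosolic genes outside the complex, 8 were below 0, with a median of −0.04. The scaffold proteins Aimp1 and Aimp2 had log2 fold changes of −0.03 each, and Eef1e1, the third scaffold, was at 0.08, with 1512 and 1524 normalized counts in WT and 1566 and 1642 in Opn4-DTA/DTA. By class, 8 of 9 cytosolic class I enzymes and 7 of 10 class II enzymes were below 0, with medians of −0.08 and −0.03. None of these genes passed the limma threshold, and the differences between the subgroups were not tested.

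The mitochondrial enzymes other than Lars2 were spread on both sides of WT. Of all 16, 9 had a log2 fold change below 0, and the median was −0.02, or −0.03 without Lars2. With libraries scaled by their totals the median was 0.01. The 15 other than Lars2 ran from −0.12 for Vars2 to 0.15 for Mars2, and 0 of them passed either test. Only Lars2, of the 36 members, had a change of at least 1.2-fold, as 10.9% of all genes did, and its groups were also apart, as was so for 6.63% of all genes.

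The members at the ends of this range were Mars2, Yars2 and Vars2, for methionine, tyrosine and valine. Mars2 had 341 and 422 normalized counts in WT and 420 and 423 in Opn4-DTA/DTA, and its log2 fold change was 0.15 ± 0.15 (SE). Yars2 had 466 and 477 in WT and 477 and 572 in Opn4-DTA/DTA, also 0.15 ± 0.14. Vars2 had 860 and 1041 in WT and 852 and 885 in Opn4-DTA/DTA, at −0.12 ± 0.13. The groups overlapped in all 3, and each difference rested on 1 library. The log2 fold change was −0.00 for Mars2 without WT library a, 0.01 for Yars2 without Opn4-DTA/DTA library b and 0.01 for Vars2 without WT library b.

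Among the 15 mitochondrial enzymes other than Lars2, the groups were apart for 3 (20%), Pars2, Aars2 and Iars2, against 23.5% of all genes. Pars2, for proline, had 382 and 402 normalized counts in WT and 406 and 403 in Opn4-DTA/DTA, a log2 fold change of 0.04. Aars2, for alanine, had 1078 and 1061 in WT and 994 and 1055 in Opn4-DTA/DTA, a log2 fold change of −0.06. Iars2, for isoleucine, had 2489 and 2464 in WT and 2401 and 2448 in Opn4-DTA/DTA, a log2 fold change of −0.03, and its exons share 2034 bases with Rab3gap2 on the opposite strand. The remaining mitochondrial genes (Cars2, Ears2, Fars2, Nars2, Sars2, Tars2, Wars2) had log2 fold changes from −0.06 for Fars2 to 0.03 for Sars2, with overlapping groups.

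**Figure D4:**
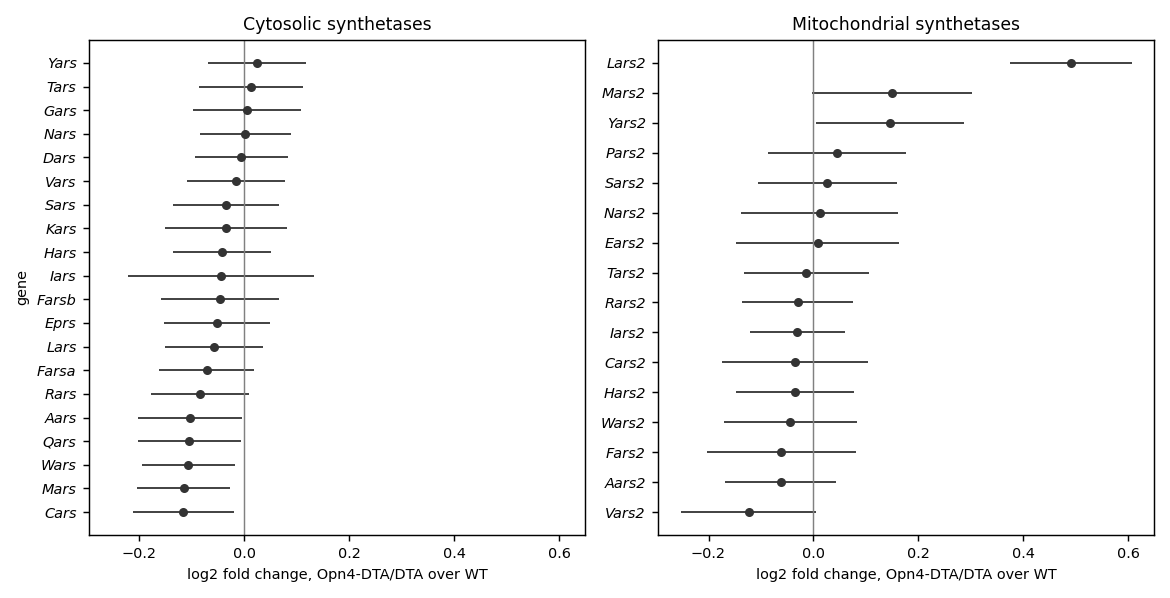
Log2 fold change, Opn4-DTA/DTA over WT, of the 20 cytosolic (left) and 16 mitochondrial (right) synthetases on the same scale, with bars for 1 standard error from limma. Lars2, at 0.49, lies outside the range of −0.12 to 0.15 that holds the other 35 genes.

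Set against each other, the mitochondrial and the cytosolic medians differed by 0.02 on the log2 scale, and by 0.01 without Lars2. This difference rested on the WT libraries: without WT library b it was 0.13, with the mitochondrial median at 0.05. In the pairs for the same amino acid, the log2 fold change of the mitochondrial enzyme was the higher one in 11 of 13, and in 10 of 12 without leucine, with a median difference of 0.05 in those 12 pairs. The largest after Lars2 and Lars, at 0.55, was that of Mars2 and Mars, at 0.26. The lowest was that of Vars2, whose counts are uncertain, and Vars, at −0.11. The pairs share the same 4 libraries, and the values of Mars2 and Vars2 rested on 1 WT library each, as given above.

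Mitochondria also charge tRNAs by a detour, in which glutamate is loaded first and then amidated to glutamine by the complex of Gatb, Gatc and Qrsl1, and Mtfmt formylates the initiator methionine. Gatb, listed under its older symbol Pet112l, had 450 and 479 normalized counts in WT and 503 and 530 in Opn4-DTA/DTA, with the groups apart and a log2 fold change of 0.15 ± 0.13 (SE). Qrsl1 had 601 and 620 in WT and 543 and 586 in Opn4-DTA/DTA, apart in the other direction, at −0.11 ± 0.12. None of the 4 passed the limma threshold.

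The enzymes that process and modify mitochondrial tRNAs held the only other called gene of mitochondrial translation in the lists examined. Cdk5rap1, which adds a methylthio group next to the anticodon of several mitochondrial tRNAs, had 259 and 292 normalized counts in WT and 435 and 472 in Opn4-DTA/DTA. Both Opn4-DTA/DTA libraries were above both WT libraries, the means differed 1.65-fold, and the log2 fold change was 0.72 ± 0.15 (SE). Its adjusted p was 0.0130 in the authors' deposited table and 0.9997 by limma, with a limma p of 0.00140 before adjustment. Of the 13 genes of this list 8 were above 0, with a median of 0.05, and the lowest was the tRNA 3′ processing enzyme Elac2, at −0.15. The groups were apart in 5 of the 13 (38.5%), 3 with Opn4-DTA/DTA higher and 2 lower, against 23.5% of all genes. This difference was not tested. The list was chosen with the deposited call of Cdk5rap1 known.

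Other lists of mitochondrial gene expression had medians near 0. Of 76 mitochondrial ribosomal protein genes 34 were below 0, with a median of 0.01. The groups were apart in 13 of the 76 (17.1%), against 23.5% of all genes. There were 0 calls by limma, against 0.0200% of all genes, and 0 in the authors' deposited table, against 0.113%. By limma 1 of the 76 had an unadjusted p under 0.05, as did 1.66% of all genes. That gene was Mrpl33, of the large subunit, with 547 and 468 normalized counts in WT and 705 and 624 in Opn4-DTA/DTA. The lowest was Mrpl23, at 48 or fewer normalized counts in every library, with a log2 fold change of −0.40 ± 0.38 (SE). Of the 9 mitochondrial translation factors 5 were below 0, with a median of −0.01, from Mtrf1l at −0.18 to the elongation factor Tufm at 0.10. Of the 11 genes that copy and transcribe the mitochondrial genome 8 were below 0, with a median of −0.03, from the RNA polymerase Polrmt at −0.15 to Tfb1m at 0.08. In both of the latter lists the groups overlapped for every gene, where 23.5% of all genes were apart.

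**Figure D5:**
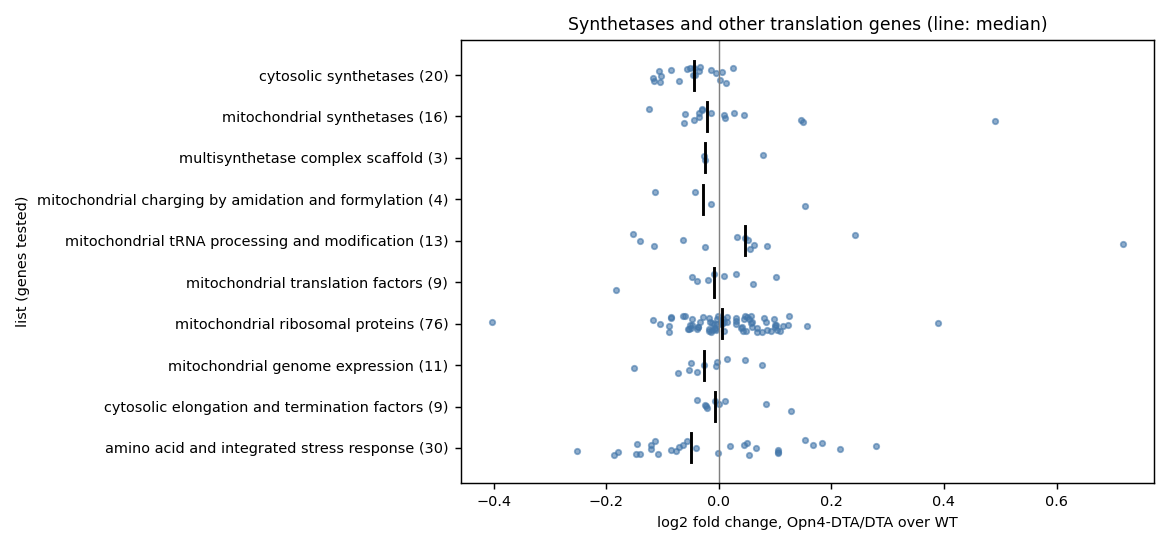
Log2 fold change, Opn4-DTA/DTA over WT, of every tested gene in 10 lists, with the number of genes in parentheses and a line at the median. The medians of all lists lie between −0.05 and 0.05, and Lars2 at 0.49 and Cdk5rap1 at 0.72 are the farthest points to the right.

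In the cytosol, the 9 elongation and termination factors had a median of −0.01, from Eef1a2 at −0.04 to Eef1a1 at 0.13. Both are forms of the factor that carries charged tRNA to the ribosome. Eef1a1 had 79308 and 72342 normalized counts in WT and 84282 and 81289 in Opn4-DTA/DTA, with the groups apart.

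The amino acid and integrated stress response genes, among which many cytosolic synthetases are usually counted, had 17 of 30 tested genes below 0 and a median of −0.05. Atf4 had 14843 and 15328 normalized counts in WT and 13316 and 13311 in Opn4-DTA/DTA, a log2 fold change of −0.18 ± 0.09 (SE). Its target Asns, the asparagine synthetase, had 2519 and 2420 in WT and 2246 and 1914 in Opn4-DTA/DTA, at −0.25 ± 0.11. In both genes, and in Ddit3, Shmt2, Mthfd2, Ppp1r15a and Herpud1, both Opn4-DTA/DTA libraries were below both WT libraries, which makes 7 of 30 genes (23.3%) apart against 23.5% of all genes. The 7 were all lower and 0 were higher, where 12.3% of all genes were apart and lower and 11.2% apart and higher. None of the 30 was called by limma or in the authors' deposited table, and the lowest limma p before adjustment was 0.0537, that of Asns. The highest was the amino acid transporter Slc7a3, at 0.28 ± 0.37. Of the 5 synthetases with a C/EBP-ATF match in the promoter, Aars was at −0.10, Iars at −0.04, Gars and Tars at 0.01 and Yars at 0.02.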

How the data were processed

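Whole retinas at postnatal day 8 were measured by polyA RNA-seq in 2 WT and 2 Opn4-DTA/DTA libraries. Per the submitters' processing notes, FastQC, STAR, HTSeq, DESeq2 and mm10 were used; versions, roles and the strand setting of the counting are not given in the sources used here. The libraries were directional, per the labels' protocols.

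Per the file headers and the values, the deposited table holds the authors' signal, which is each group's mean of counts scaled by size factors (normalized counts). It also holds the deposited log2 fold change with its standard error, both shrunken towards 0, a deposited score (the test statistic), and the deposited p-value and adjusted p-value. 1 line was empty, and a second sheet, which repeats 6 genes, was not used.

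Each group mean above 0 was solved for the 1 pair of whole counts that gives it within a relative tolerance of 3e-13. All 17757 WT means and all 18327 Opn4-DTA/DTA means were solved, as were, in simulated data, 10000 of 10000 pairs per group. Total counts were 28726275 and 22202382 in WT libraries a and b and 60833968 and 32032295 in Opn4-DTA/DTA libraries a and b. The recovered counts come from deposited means, not from a deposited count table, so the test for normalized values was kept.

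All 4 libraries entered one fit with limma 3.58.1 in R 4.3.3, on log2(normalized count + 1). It had a mean-variance trend and no covariates. Genes whose mean over the libraries was below 10 normalized counts were left out. P-values were adjusted over all 15003 genes by Benjamini-Hochberg, with a threshold of 0.05. The scale understates the change of low genes. The fit was tested on simulated data. Groups are called apart where both libraries of one lie above both of the other.

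The members, the gene lists, the enzyme classes and the motifs were chosen with earlier results of these data known, and their counts are descriptions. Named in each library are Lars2, Lars, the 4 members of each set with the largest change and the 3 with the highest level per coding length. Of other lists the highest and lowest gene and any gene called in the authors' deposited table are named. Further genes, among them all members with separated groups, Iars and the stress genes, were named after their values were seen. Coding lengths and places come from the GENCODE annotation of GRCm38. For Farsa, Hars2 and Vars2 the deposited table prints the place of another gene that has the symbol as a synonym, and the symbol was used, so that their counts are uncertain. Alternatives were the pseudocount, the filter, scaling by library totals, no trend, Gars and Kars left out, Lars2 left out and each library left out. Genes encoded in the mitochondrial genome were not analysed here, and 1 marker and 1 sequence are not reported here.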

Additional observations from a re-analysis of the deposited data

How the results depend on the processing

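Each library was left out in turn, with a lone library taken to vary like the other group. The genes called by limma were then 10 to 306 instead of 3 (306 when WT library a was left out, 237 when WT library b was), and the synthetases called 0 to 2 instead of 0. These were Iars and Lars2 in the first of those cases and Lars2 in the second. The mitochondrial median log2 fold change ran from −0.0371 to 0.0536 (−0.0219 with all libraries), the cytosolic from −0.0784 to −0.0424 (−0.0447), their difference from 0.00837 to 0.132 (0.0228), and Lars2 from 0.36 to 0.62. Without a mean-variance trend 0 genes were called by limma. With libraries scaled by their totals the cytosolic median was −0.0161. Of the values of these results under the alternatives, 11 moved by at least the SD that the library spread gives, or for counts by over 1.5 times, and 53 did not. Part of the 53 could not move, since the filter and the trend do not enter the log2 fold changes of the members. By the same rule Mars (−0.09) and Nars (0.03) moved under scaling by totals. Among the 14 synthetases named by the rule given above, the log2 fold change turned sign for 6 when 1 library or another was left out. These were Nars, Sars, Hars2, Mars2, Rars2 and Vars2. Outside these 14 others turned sign too, among them Iars and Dars. No paired analysis was possible because the groups share no replicate numbers. With 2 libraries a group and standard errors of 0.09 to 0.18 per synthetase, differences of the size seen in the 35 genes other than Lars2 were not detectable. The larger difference of Lars2 did not pass the limma threshold with all libraries either.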
